A study of Mus musculus with 16 samples.

Results

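The 35 smooth muscle contractile genes described here encode the contractile, cytoskeletal and calcium-handling proteins of the muscle layers of the gut wall. They were chosen by name for these roles, with earlier results of these data known. All 35 were found among the 41740 genes listed for each of the 16 ileal libraries. All 35 also passed the filter on low counts, which left 15267 genes for testing. They fell into 6 roles, with 5 genes of the thick filament and its regulation, 9 of the thin filament, 2 of the intermediate filament, 11 of dense bodies, adhesion sites and the membrane skeleton, 6 of channels, caveolae and the calcium store, and 2 transcription regulators.

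Smooth muscle shortens when calcium entering the cell activates myosin light chain kinase, which phosphorylates the regulatory light chain and lets myosin pull on actin. The actin filaments are anchored in dense bodies and in adhesion plaques at the membrane, and desmin filaments link these anchors through the cell. In the ileum the circular and longitudinal layers carry out peristalsis, and vessel walls and the muscularis mucosae hold smooth muscle as well. Serum response factor, with its cofactor myocardin, drives many of the genes by binding CArG boxes in their promoters.

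RNA was sequenced from whole ileum of male STAM mice, a model of diabetes with steatohepatitis made by a streptozotocin injection at 2 days of age and high-fat feeding from 4 weeks, with the study's insulin experiment read at 20 weeks. Control-STAM-nonINS (n = 4) and Control-STAM-INS (n = 6) carried the floxed insulin receptor without Cre, which the labels write as Vilin-Cre(-) and InsR-flox, and ieIRKO-STAM-INS (n = 6) carried Vilin-Cre(+) and InsR-flox. The Villin promoter drives Cre in the intestinal epithelium and not in muscle. Both INS groups received insulin injections from 6 weeks of age and the nonINS group received no insulin. By the study's methods, control mice of the ieIRKO insulin experiment were given normal saline. There was no ieIRKO group without insulin. Each library holds between 13288018 and 22215382 counts. Insr itself measured 62.7 ± 10.1 CPM (counts as a proportion of the library's effective size) in the treated controls (SD, n = 6) and 67.2 ± 13.3 (SD, n = 6) in libraries labelled ieIRKO, so that the whole-wall count did not separate the genotypes. In the untreated controls Insr was 105 ± 12.2 CPM (SD, n = 4), and its log2 fold change with insulin was -0.75 (edgeR adjusted p = 0.0028). ieIRKO-STAM-INS replicates 2 and 3 held 354 and 217 CPM of 4 summed B cell genes, against 17.3 to 51.6 in the other libraries, and the effect of leaving both out is given where it ends a call named here.

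Levels are given as CPM after TMM scaling of the library sizes. Between 0.616% and 0.981% of the counts of a library fell on the 35 genes. Per kilobase of annotated exon, the highest mean level over the 16 libraries belonged to Myl9, the regulatory light chain, with 302 CPM per kilobase, and Acta2 followed with 227 and Tagln with 205. The lowest belonged to Kcnma1, the pore of the large-conductance potassium channel, with 0.474, and Myocd, the cofactor of serum response factor, stood at 0.739. The roles overlapped, since Srf, serum response factor, stood at 24.9, above the thin filament genes Smtn (22.3), Lmod1 (18.5) and Cald1 (17.0). This scale uses the union of all annotated exons and understates genes whose long alternative exons are not used in the ileum.

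None of the 35 genes was called in any of the 3 comparisons by edgeR's quasi-likelihood test at an adjusted p under 0.05. Over all genes tested, 10.5% were called with insulin (the treated controls against the untreated controls), 0.223% between the genotypes (ieIRKO mice against controls, both treated), and 13.3% in the third comparison, that of the treated ieIRKO mice with the untreated controls. Each pair of these comparisons shares a group of libraries, so they are not independent. At an unadjusted p under 0.05 in edgeR, 6 members passed with insulin (Mylk, Ppp1r12b, Synpo2, Ldb3, Pdlim3 and Tagln), 1 between the genotypes (Ldb3) and 3 in the third comparison (Synpo2, Pdlim3 and Tagln), where 25.4%, 11.3% and 29.4% of all genes passed. DESeq2 called 3 members with insulin, which were Synpo2, Ldb3 and Pdlim3 and all higher, where it called 12.8% of all genes. DESeq2 called 0 members in the other comparisons, with 0.82% and 15.6% of all genes called.

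The fitted changes of the members were small and their intervals bounded them. With insulin, 23 members had a log2 fold change above 0 and 12 below it, with a median of 0.08, from -0.30 for Tagln to 0.43 for Ldb3. Between the genotypes, 11 were above 0 and 24 below, with a median of -0.05, from -0.37 for Ldb3 to 0.12 for Csrp1. In the third comparison, 20 were above 0 and 15 below, with a median of 0.02, from -0.32 for Tagln to 0.39 for Cnn1. Over the alternative fits the member medians ran from 0.02 to 0.12 with insulin and from -0.12 to 0.03 between the genotypes. In the third comparison they ran from -0.02 to 0.10, so the sign changed in the last 2 comparisons. The medians over all genes tested were -0.0043, 0.02 and 0.0088 in the same order. The 95% interval of all 35 members lay inside a 2-fold change in each comparison, and it lay inside a 1.5-fold change for 26 members with insulin, 34 between the genotypes and 29 in the third comparison. The median size of change was 0.11 for the members and 0.20 for all genes with insulin, and 0.07 and 0.13 between the genotypes. In whole tissue, fewer muscle cells and less RNA per muscle cell cannot be told apart.

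**Figure D1:**
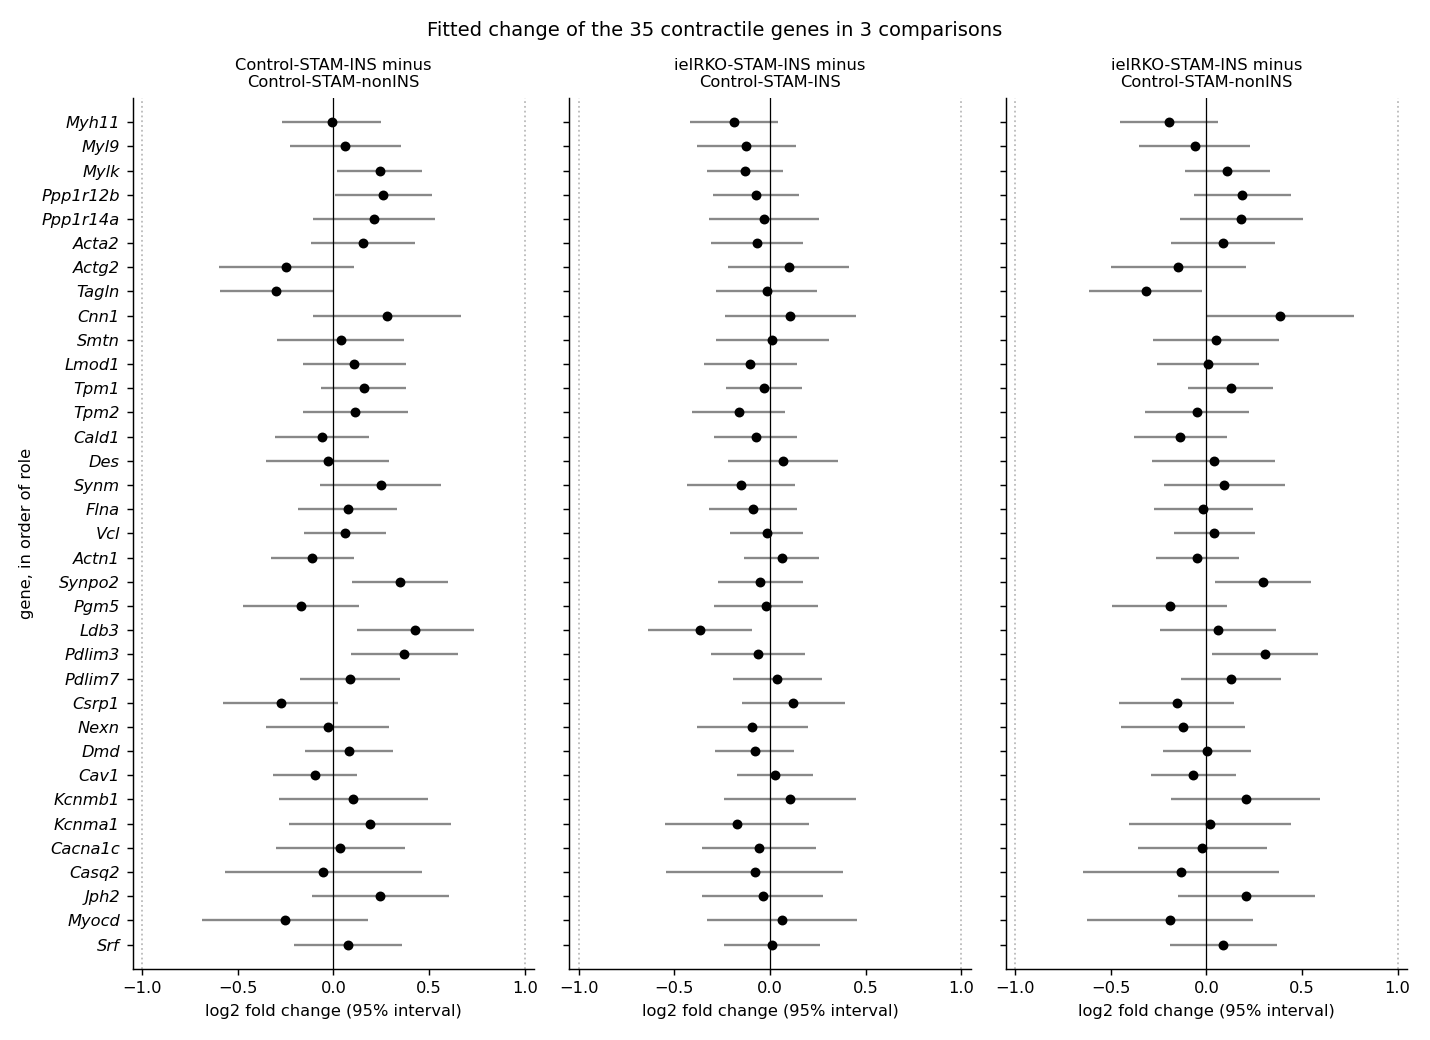
Fitted log2 fold change of the 35 contractile genes (points) with the 95% interval (lines) in the 3 comparisons, with genes on the vertical axis in order of role. Dotted lines mark a 2-fold change, and every interval lies between them, with Ldb3 furthest to the right (0.43) in the first panel and furthest to the left (-0.37) in the second.

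In the thick filament, Myh11, the smooth muscle myosin heavy chain (ENSMUSG00000018830.10, chr16:14194535-14291372 of GRCm38, 43 exon blocks), measured 1300, 1088, 1165 and 1129 CPM in the 4 Control-STAM-nonINS libraries. In Control-STAM-INS it ran from 918 to 1403 with a median of 1127, and in ieIRKO-STAM-INS from 930 to 1182 with a median of 999. The range of the insulin-treated controls was the widest and contained every value of the other groups. The log2 fold change of Myh11 was -0.0097 (standard error 0.12, 95% interval -0.27 to 0.25, edgeR adjusted p = 0.974) with insulin and -0.19 (0.11, -0.42 to 0.04, adjusted p = 0.548) between the genotypes. In ieIRKO-STAM-INS 5 of 6 libraries lay below the lowest nonINS library, with a log2 fold change of -0.20 (0.12, -0.45 to 0.06, edgeR adjusted p = 0.296).

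The other thick filament genes regulate myosin. Mylk, the light chain kinase, was 710, 719, 714 and 535 CPM in Control-STAM-nonINS and 667 to 929 in Control-STAM-INS, with 5 of 6 insulin-treated libraries above the highest untreated library. Its log2 fold change was 0.24 with insulin (standard error 0.11, edgeR adjusted p = 0.161), and it was 0.15 when Control-STAM-nonINS replicate 4, the low library, was left out. Ppp1r12b, a targeting subunit of myosin phosphatase, had 0.26 and Ppp1r14a, the phosphatase inhibitor CPI-17, had 0.21. Between the genotypes all 5 genes of this role had log2 fold changes below 0, from -0.19 to -0.03, and the smallest edgeR adjusted p was 0.548. Of 23 alternatives, Ppp1r14a was above 0 in 5 (up to 0.0463) and Ppp1r12b in 1 (0.0045).

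**Figure D2:**
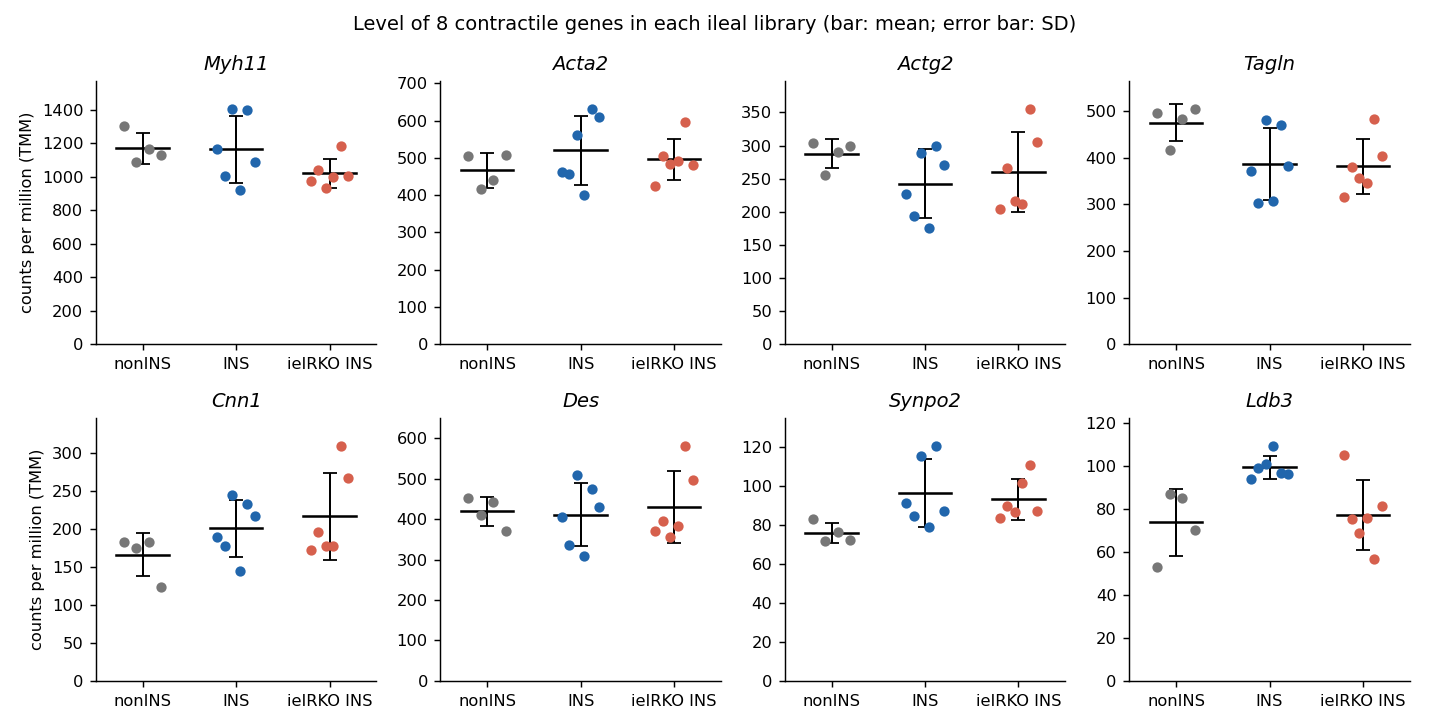
Level of 8 contractile genes in each library, in CPM after TMM on the vertical axis, with points for libraries, bars for group means and error bars for SD (n = 4, 6 and 6). The groups overlap for all genes shown except Ldb3 between nonINS and INS controls and Synpo2 between nonINS controls and ieIRKO INS.

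In the thin filament, Acta2, smooth muscle alpha-actin (ENSMUSG00000035783.9, chr19:34241090-34255590), measured 505, 415, 440 and 508 CPM in Control-STAM-nonINS. It ran from 400 to 631 with a median of 512 in Control-STAM-INS and from 425 to 595 with a median of 487 in ieIRKO-STAM-INS, so the 3 groups overlapped. Its log2 fold change was 0.15 with insulin (standard error 0.13, edgeR adjusted p = 0.492) and -0.07 between the genotypes (0.12, adjusted p = 0.858). Without Control-STAM-INS replicate 5 the first of these was 0.0998.

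Actg2, the enteric gamma-actin of visceral muscle (ENSMUSG00000059430.14, chr6:83512905-83536265), measured 304, 256, 291 and 300 CPM in Control-STAM-nonINS. It ran from 176 to 300 with a median of 249 in Control-STAM-INS and from 204 to 355 with a median of 241 in ieIRKO-STAM-INS. Among the insulin-treated controls, 3 of 6 lay below the lowest untreated library and none lay above the highest. The log2 fold change of Actg2 was -0.25 with insulin (standard error 0.17, edgeR adjusted p = 0.386) and 0.10 between the genotypes (0.15, adjusted p = 0.843). The 2 actins are near-identical in sequence, and how reads that fit both were shared out is not given in the sources used here.

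Tagln, the actin-binding protein transgelin (ENSMUSG00000032085.5, chr9:45929619-45936058), measured 495, 418, 484 and 504 CPM in Control-STAM-nonINS. It ran from 303 to 482 with a median of 377 in Control-STAM-INS and from 317 to 484 with a median of 369 in ieIRKO-STAM-INS. Below the lowest untreated library lay 4 of 6 insulin-treated controls and 5 of 6 ieIRKO libraries. The log2 fold change of Tagln was -0.30 with insulin (standard error 0.14, 95% interval -0.59 to -0.0035, edgeR adjusted p = 0.192) and -0.32 in the third comparison (0.14, -0.61 to -0.02, adjusted p = 0.142), while it was -0.02 between the genotypes (adjusted p = 0.971). Tagln overlaps Pcsk7 on the other strand, which held up to 1654 counts in a library, and whether the counting used strand is not given in the sources used here.

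Cnn1, calponin, which binds actin and restrains myosin (ENSMUSG00000001349.5, chr9:22099216-22109630), went the other way in its point estimates. It measured 182, 174, 182 and 124 CPM in Control-STAM-nonINS, 144 to 244 with a median of 203 in Control-STAM-INS, and 172 to 309 with a median of 186 in ieIRKO-STAM-INS. The fourth untreated library stood low, and ieIRKO replicates 5 and 6 stood high with 309 and 267 CPM. The log2 fold change of Cnn1 was 0.28 with insulin (standard error 0.18, edgeR adjusted p = 0.372) and 0.39 in the third comparison (0.18, 95% interval -0.0034 to 0.77, adjusted p = 0.174). Without the low untreated library, replicate 4, the value of Cnn1 with insulin was 0.16. The tropomyosins Tpm1 and Tpm2, caldesmon (Cald1), leiomodin (Lmod1) and smoothelin (Smtn) had log2 fold changes from -0.06 to 0.16 with insulin and from -0.16 to 0.01 between the genotypes.

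In the intermediate filament, Des, desmin (ENSMUSG00000026208.9, chr1:75360329-75368579), measured 451, 411, 442 and 371 CPM in Control-STAM-nonINS. It ran from 308 to 509 with a median of 418 in Control-STAM-INS and from 355 to 581 with a median of 388 in ieIRKO-STAM-INS. The groups overlapped throughout, and the log2 fold changes were -0.03 with insulin (standard error 0.15, edgeR adjusted p = 0.933) and 0.07 between the genotypes (0.14, adjusted p = 0.881). Synm, synemin, which joins desmin to the adhesion sites, had 0.25 and -0.15 (adjusted p = 0.327 and 0.701).

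Among the dense body and adhesion genes, 3 PDZ-domain or synaptopodin-type scaffold genes had the largest positive estimates with insulin. Ldb3, which encodes the alpha-actinin partner also called ZASP or Cypher (ENSMUSG00000021798.14, chr14:34526603-34588682), measured 53.2, 86.8, 85.3 and 70.3 CPM in Control-STAM-nonINS. It ran from 93.9 to 109 with a median of 98.0 in Control-STAM-INS, so that 6 of 6 insulin-treated controls lay above every untreated library. Ldb3 was the only member whose CPM did not overlap in this comparison, where 10.6% of all genes did not overlap. Its log2 fold change was 0.43 (standard error 0.15, 95% interval 0.12 to 0.73, edgeR adjusted p = 0.0675).

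In the libraries labelled ieIRKO-STAM-INS, Ldb3 measured 105, 75.2, 68.7, 75.7, 56.7 and 81.4 CPM, and 5 of 6 lay below the lowest Control-STAM-INS library. The log2 fold change between the genotypes was -0.37 (standard error 0.13, 95% interval -0.64 to -0.10, edgeR adjusted p = 0.319), the largest in size among the members. Against Control-STAM-nonINS it was 0.06 (0.14, adjusted p = 0.81). No member had groups that did not overlap in CPM between the genotypes, where 0.845% of all genes did. Only the first of the ieIRKO libraries stood inside the range of the insulin-treated controls.

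Synpo2, the actin-bundling protein myopodin (ENSMUSG00000050315.14, chr3:123076519-123236149), measured 82.9, 71.8, 76.2 and 72.2 CPM in Control-STAM-nonINS. It ran from 78.8 to 121 with a median of 89.2 in Control-STAM-INS and from 83.4 to 111 with a median of 88.2 in ieIRKO-STAM-INS. In the INS controls 5 of 6 libraries, and in the ieIRKO group 6 of 6, lay above the highest untreated library. The log2 fold change was 0.35 with insulin (standard error 0.12, 95% interval 0.09 to 0.60, edgeR adjusted p = 0.0725) and 0.30 in the third comparison (0.12, 0.05 to 0.55, adjusted p = 0.104), and -0.05 between the genotypes (0.11, adjusted p = 0.888). Synpo2 was the only member without overlap in CPM in the third comparison, where 8.56% of all genes did not overlap. Pdlim3, an alpha-actinin-associated LIM protein, had 0.37, 0.31 and -0.06 in the same order (edgeR adjusted p = 0.0808, 0.129 and 0.868).

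Csrp1, a cysteine-rich LIM protein of smooth muscle, had an estimate of -0.28 on the log2 scale with insulin (SE 0.14, edgeR adjusted p = 0.235), with 4 of 6 insulin-treated controls below the lowest untreated library. Flna, vinculin (Vcl), alpha-actinin 1 (Actn1), Pgm5, Pdlim7, Nexn and dystrophin (Dmd) lay between -0.17 and 0.09 with insulin. Between the genotypes the 10 genes of this role other than Ldb3 lay between -0.09 and 0.12. Vcl overlaps Ap3m1 on the other strand, which held up to 1588 counts.

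Upstream sequence was compared because CArG boxes are the sites by which serum response factor reaches these genes. Promoter windows in RefSeq's table for GRCm38.p6 were matched for 30 of the 35 members, and 250 bases before each start were searched on both strands for the 10-base CArG box. It was present for 5 members, Myl9, Vcl, Ldb3, Srf and Dmd. In the table as a whole, 1.47% of all 32851 windows and 1.62% of all genes held it. The 5 members without a matched window, Myh11, Actg2, Tagln, Nexn and Myocd, were not searched. Only exact boxes within these 250 bases were counted, so variant boxes and boxes elsewhere in a gene were not sought. The sequences below run 5′ to 3′ on the strand of the gene, with the box in capitals and up to 30 bases on each side.
Myl9 (chr2:156775273-156775342, plus strand): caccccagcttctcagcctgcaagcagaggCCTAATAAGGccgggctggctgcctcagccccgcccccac
Vcl (chr14:20929148-20929210, plus strand): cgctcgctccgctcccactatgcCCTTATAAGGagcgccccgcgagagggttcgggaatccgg
Ldb3 (chr14:34588682-34588746, minus strand): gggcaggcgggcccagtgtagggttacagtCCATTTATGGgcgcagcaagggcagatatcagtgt
Srf (chr17:46556185-46556274, minus strand): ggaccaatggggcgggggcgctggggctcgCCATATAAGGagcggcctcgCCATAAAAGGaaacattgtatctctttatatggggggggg
Dmd (chrX:82948742-82948811, plus strand): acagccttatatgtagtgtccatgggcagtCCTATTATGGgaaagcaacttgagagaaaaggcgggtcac
The box of Ldb3 begins 35 bases before the start and those of Srf, the gene of the factor itself, 82 and 62 bases before it. A match describes these letters only and does not show binding in the ileum.

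Among the channel, caveola and calcium store genes, Jph2, junctophilin, had the largest log2 fold change with insulin, 0.25 (edgeR adjusted p = 0.393), and Cav1, caveolin 1, the lowest, -0.10 (adjusted p = 0.619). The calcium channel Cacna1c had 0.04 with insulin and -0.06 between the genotypes, and the store protein Casq2 had -0.05 and -0.08. The potassium channel subunits Kcnma1 and Kcnmb1 had 0.19 and 0.10 with insulin and -0.17 and 0.10 between the genotypes. Over 21 alternatives the values with insulin ran from 0.07 to 0.39 for Kcnma1, -0.04 to 0.23 for Kcnmb1 and -0.34 to 0.07 for Casq2. Casq2 had the widest interval of all members, from -0.57 to 0.46 with insulin, on 66 counts in its lowest library. Srf had 0.08 and 0.01, and Myocd had -0.25 and 0.06 on 52 counts or more (edgeR adjusted p = 0.481 and 0.922).

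The summed level of the 35 genes was 8007, 7069, 7588 and 7457 CPM in Control-STAM-nonINS. It ran from 6263 to 9241 with a median of 7727 in Control-STAM-INS and from 6726 to 8876 with a median of 7284 in ieIRKO-STAM-INS. The groups overlapped, and the group means differed by 0.04 (standard error 0.12) on the log2 scale with insulin, by -0.06 (0.11) between the genotypes and by -0.02 (0.08) in the third comparison. The SD between libraries was 387 CPM in the untreated group and 1171 CPM in the insulin-treated controls.

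Within the groups the members varied together between libraries. After each group's mean was taken off, the correlation of a member with the sum of the other 34 over the 16 libraries had a median of 0.803, and it was over 0.7 for 23 members, where 1.16% of all genes tested were over 0.7 with the summed members. These libraries share their tissue, their dissection and their scaling, so the values are a description. Tagln (0.949), Flna (0.945), Actg2 (0.934) and Myh11 (0.932) followed the sum most closely. Ldb3 went against it with -0.481, and Kcnma1 (-0.034), Myocd (0.139), Vcl (0.168) and Dmd (0.175) did not follow it.

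**Figure D3:**
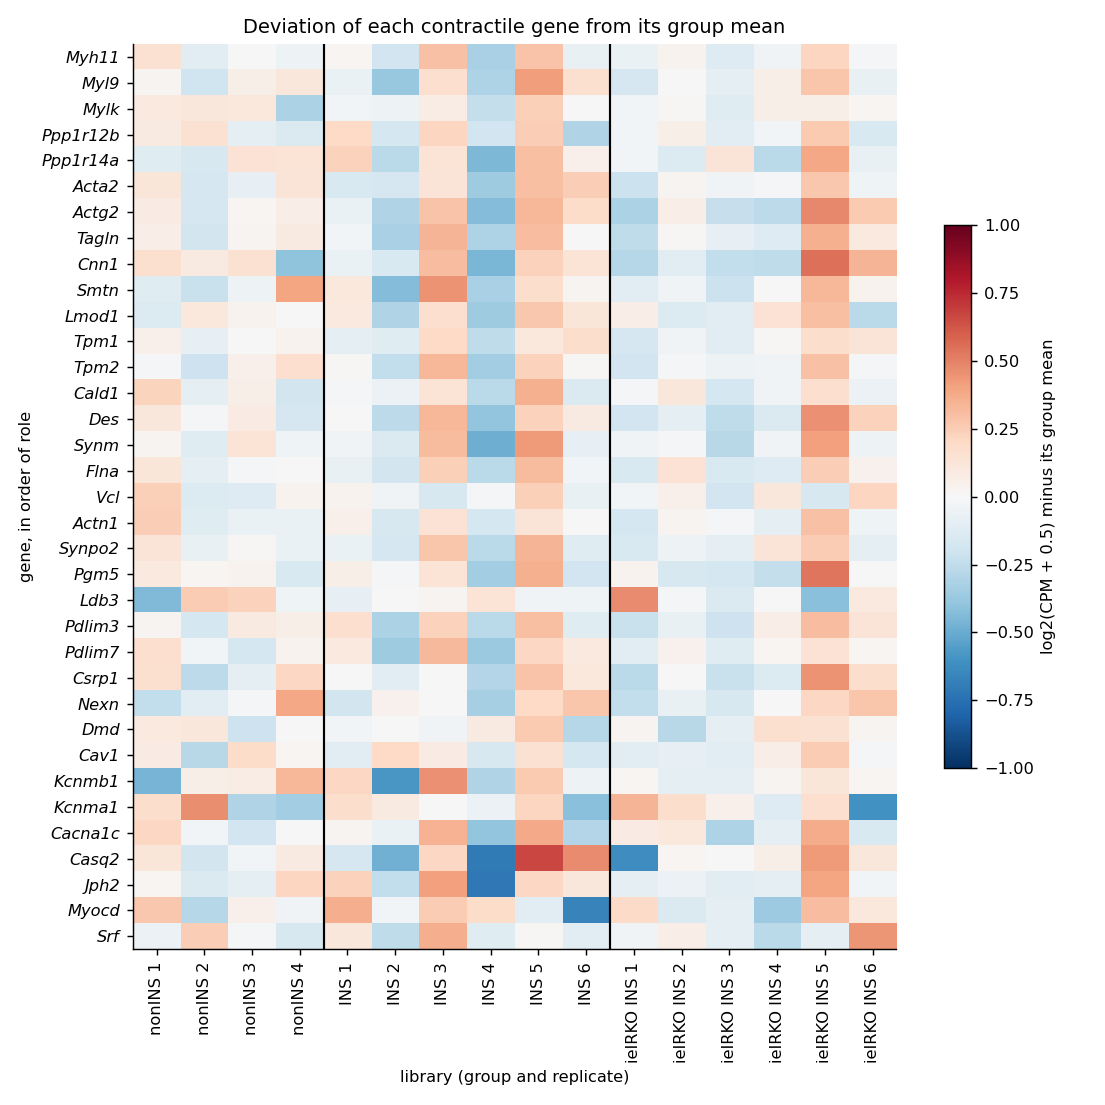
Deviation of each contractile gene (rows, in order of role) from its group mean in each library (columns), in log2(CPM + 0.5), red above and blue below the mean. INS replicates 3 and 5 and ieIRKO replicate 5 are red for most genes and INS replicate 4 is blue, while Ldb3 is blue in ieIRKO replicate 5.

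A few libraries carried most of this spread. In ieIRKO-STAM-INS replicate 5, 28 of the 35 members had their highest value of the group, with a median of 1.21 times the group mean. In Control-STAM-INS replicate 5, 19 members were highest and in replicate 3 another 12, whereas 22 were lowest in replicate 4, with a median of 0.81 times the group mean. Ldb3 was at its lowest of the group, 56.7 CPM, in the ieIRKO library where most members were highest.

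Some markers of other cells of the wall also differed between these libraries. The summed level of 8 enterocyte markers was 7299 CPM in ieIRKO-STAM-INS replicate 5, against 16560 to 32790 in the other 5 libraries of that group, and it was 16900 and 18140 CPM in Control-STAM-INS replicates 5 and 3, the lowest of that group. The 13 markers of enteric neurons and glia reached 144 and 133 CPM in ieIRKO-STAM-INS replicate 5 and Control-STAM-INS replicate 5, the highest of their groups, and 109 CPM in Control-STAM-INS replicate 4, the lowest. The summed 4 markers of interstitial cells of Cajal were highest in Control-STAM-INS replicate 5 (88.6 CPM) and lowest in replicate 4 (65.4 CPM). In ieIRKO-STAM-INS replicate 5 they reached 77.8 CPM, the highest of its group, beside 77.1 CPM in replicate 4. The vascular mural sum was also highest in Control-STAM-INS replicate 5 (495 CPM) and lowest in replicate 4 (354 CPM). Other values did not line up in this way. The enterocyte sum of Control-STAM-INS replicate 4 was 24600 CPM, inside the range of its group, and the fibroblast and vascular mural sums of ieIRKO-STAM-INS replicate 5, 601 and 414 CPM, were not the extremes of theirs. The part that the share of muscle in each piece of wall plays in the members' levels was not tested. Of the striated muscle markers, Myh1, Myh4 and Myh6 had at most 3 counts in every library.

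**Figure D4:**
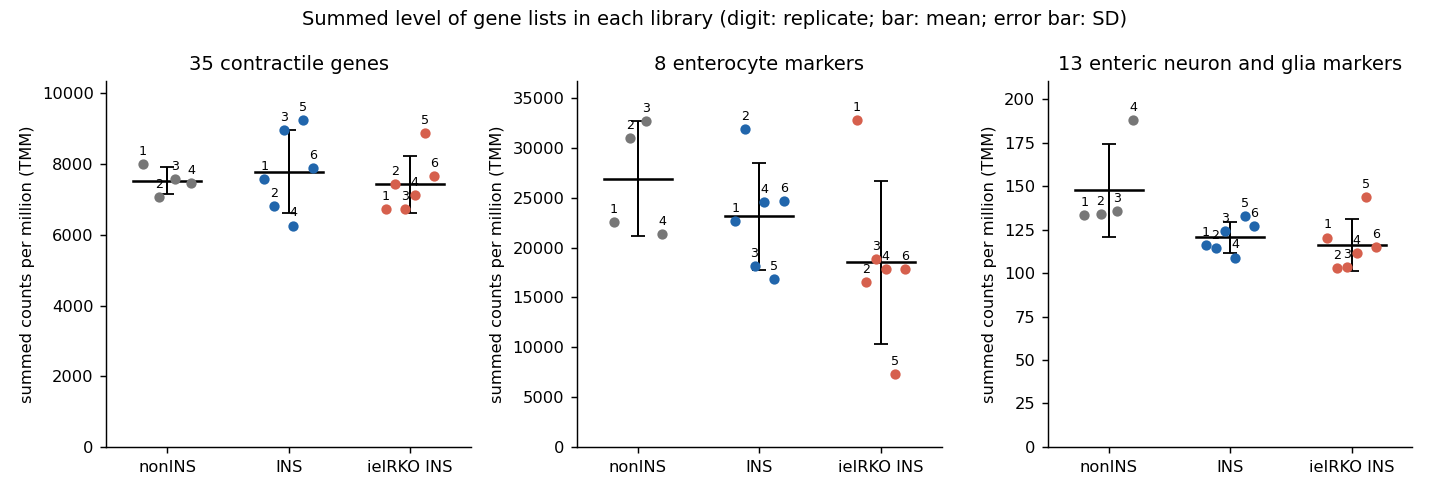
Summed level, in CPM after TMM, of the 35 contractile genes, 8 enterocyte markers and 13 markers of enteric neurons and glia in each library, with the replicate number at each point, bars for group means and error bars for SD. ieIRKO INS replicate 5 has the highest contractile sum of its group (8876) and the lowest enterocyte sum (7299).

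Because the members moved together, each was also expressed per 1000 counts of the 35 genes, which asks how the contractile pool is made up. On this scale 5 of 35 members (14.3%) had no overlap between treated and untreated controls, where 6.14% of all genes did not overlap. These shares are not a like comparison, since dividing by the members' own sum takes out the variation that they share and adds it to other genes. In CPM, 1 of 35 members (2.86%) and 10.6% of all genes did not overlap. Tagln took 61.9, 59.1, 63.8 and 67.6 per 1000 in the untreated libraries and 44.5 to 53.7 in the insulin-treated controls. Actg2 took 38.0, 36.1, 38.3 and 40.3 against 28.1 to 34.3, and Csrp1 took 47.2, 39.9, 41.7 and 52.4 against 31.3 to 38.3. These 3 genes were lower in every insulin-treated control. Synpo2 took 10.3, 10.2, 10.1 and 9.68 per 1000 against 11.1 to 13.04, and Pdlim3 took 5.06, 4.97, 5.57 and 5.54 against 5.92 to 7.55, so both were higher in every insulin-treated control. By edgeR with this scaling 0 members passed an adjusted p under 0.05 and 5 (14.3%) an unadjusted p under 0.05, where 4.77% and 17.7% of all genes passed.

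In the third comparison, 6 of 35 members (17.1%) did not overlap on the same scale, against 7.34% of all genes. Tagln and Myh11 were lower, and Synpo2, Pdlim3, Cnn1 and Tpm1 were higher. Myh11 took 131 to 145 per 1000 in the ieIRKO libraries and 151 to 162 in the untreated controls. By edgeR on this scale 0 members were called and 4 had an unadjusted p under 0.05, where 6.01% and 21.1% of all genes passed these thresholds. Between the genotypes 0 of 35 members were without overlap, against 0.452% of all genes, and edgeR on this scale called 0 members at either threshold, where 0.183% and 8.56% of all genes passed.

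Ratios of 2 pairs of members were chosen after their values were seen and are given as a description only. Acta2 had 1.66, 1.63, 1.51 and 1.69 times the counts of Actg2 in Control-STAM-nonINS and 1.94 to 2.36 times in Control-STAM-INS, with no overlap. In ieIRKO-STAM-INS the ratio was 2.08, 1.89, 2.23, 2.31, 1.68 and 1.57, which spans both control groups. The ratio of Tagln to Cnn1 was 2.71, 2.40, 2.65 and 4.08 in the untreated libraries, 1.70 to 2.13 in the insulin-treated controls and 1.52 to 2.01 in the ieIRKO libraries.

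**Figure D5:**
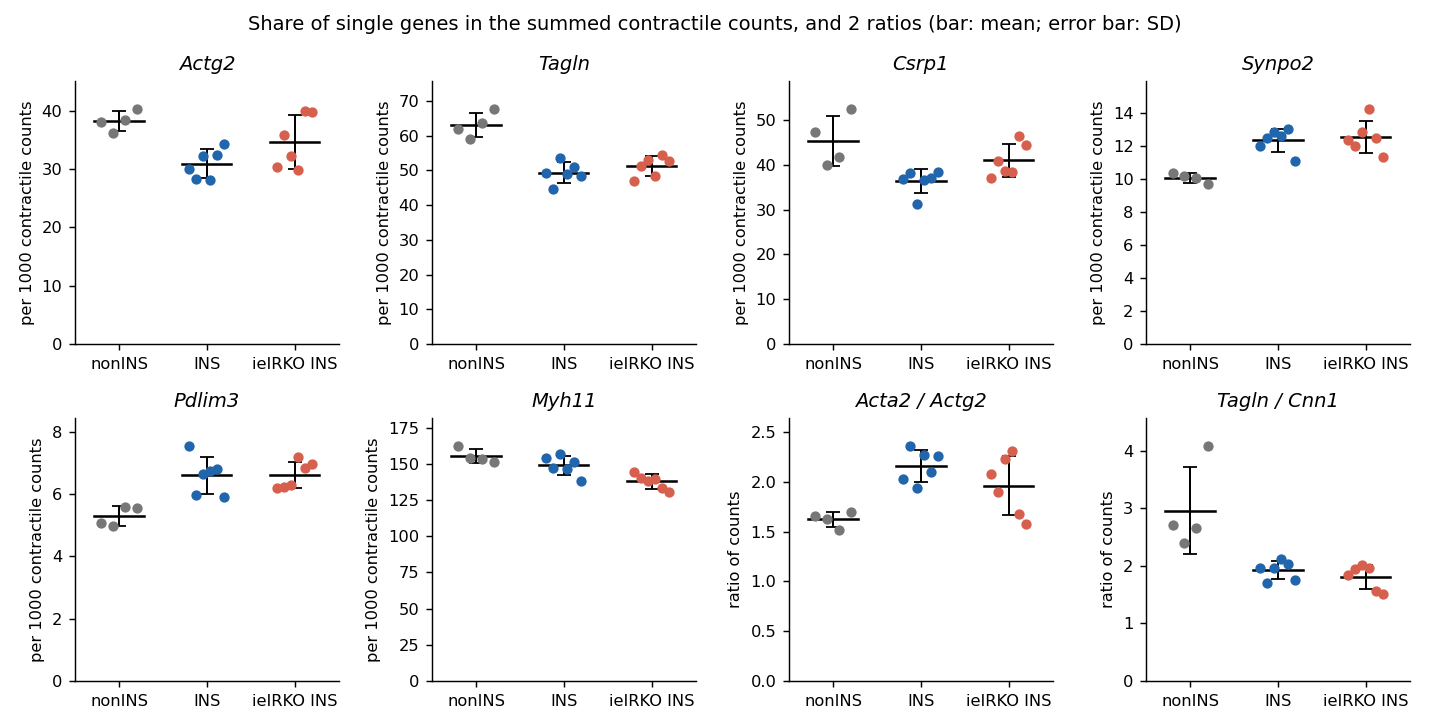
Counts of 6 contractile genes per 1000 counts of the 35 genes, and 2 ratios of counts, in each library, with bars for group means and error bars for SD (n = 4, 6 and 6). Actg2, Tagln and Csrp1 are lower and Synpo2 and Pdlim3 higher in all INS controls than in any nonINS library, and the ieIRKO values of Actg2 (29.8 to 39.99) span both control groups.

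Other genes of muscle contraction were followed in 6 lists of 78 genes, of which 74 were tested. With insulin 1 was called higher and 2 lower, between the genotypes 0 were called, and in the third comparison 2 were called higher and 4 lower, where 10.5%, 0.223% and 13.3% of all genes were called. At an unadjusted p under 0.05 in edgeR, 11, 7 and 17 of the 74 passed, against 25.4%, 11.3% and 29.4% of all genes. The median log2 fold change of the 74 was -0.02, -0.05 and -0.05. Stim1, the calcium sensor of the store that opens store-operated channels, measured 90.2, 72.8, 68.1 and 60.9 CPM in Control-STAM-nonINS and 47.2 to 63.3 in Control-STAM-INS. It fell by 0.48 on the log2 scale with insulin (standard error 0.11, edgeR adjusted p = 0.0102) and was lower by a like amount in ieIRKO-STAM-INS (log2 fold change -0.47, adjusted p = 0.00963). Without Control-STAM-nonINS replicate 1 these values were -0.36 and -0.35 (edgeR adjusted p = 0.0577 and 0.0546). Stim1 is made by many cell types, and the change cannot be placed in muscle.

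Among the cofactors of serum response factor, Mrtfb fell with insulin from 46.0 ± 6.83 (SD, n = 4) to 35.3 ± 4.07 CPM (SD, n = 6), a log2 fold change of -0.38 (edgeR adjusted p = 0.0321), and it was -0.37 in the third comparison (adjusted p = 0.031). Of the chaperones, Hspb6, the small heat shock protein HSP20 that is linked to relaxation, rose from 11.9 ± 2.25 to 18.1 ± 4.80 CPM (log2 fold change 0.61, edgeR adjusted p = 0.0409). In the third comparison Pln, phospholamban, which restrains the calcium pump of the store, rose by 0.47 on the log2 scale (edgeR adjusted p = 0.0441), and the non-muscle tropomyosin gene Tpm3 by 0.39 (adjusted p = 0.0389). The adhesion genes Zyx, zyxin, and Tns1, tensin 1, fell in that comparison by 0.46 and 0.35 (adjusted p = 0.0149 and 0.043). Of 21 alternatives, Zyx passed in 19, Mrtfb in 13 with insulin and 9 in the third comparison, Hspb6 in 12, Tpm3 in 11, Pln in 9 and Tns1 in 7. Without Control-STAM-nonINS replicate 1 the adjusted p was 0.121 for Mrtfb with insulin, 0.152 for Pln and 0.139 for Tns1, and without replicate 4 it was 0.133 for Hspb6 and 0.0983 for Tpm3. The log2 fold changes in these fits were -0.32, 0.38, -0.31, 0.49 and 0.28 in the same order. With ieIRKO-STAM-INS replicates 2 and 3 both left out, Pln, Zyx, Tns1, Mrtfb and Tpm3 passed no longer in the third comparison (edgeR adjusted p from 0.0511 to 0.129), at 0.48, -0.46, -0.32, -0.37 and 0.39. The dystrophin complex list held no called gene in any comparison.

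Some markers of neighbouring cell types were called with insulin. Of 5 endothelial markers, Tie1, Cdh5 and Vwf fell, with log2 fold changes of -0.49, -0.70 and -0.75 (edgeR adjusted p = 0.0175, 0.0197 and 0.0282). Vip, a relaxing neuropeptide of enteric neurons, fell from 63.0 ± 24.2 (SD, n = 4) to 30.5 ± 6.16 CPM (SD, n = 6), and Ret, a receptor of enteric neurons, rose from 11.2 ± 1.97 to 16.7 ± 2.79 CPM, out of 13 neuron and glia markers. Thbs4 was the called gene of 4 markers of interstitial cells of Cajal, with 11.5 ± 4.14 and 6.41 ± 1.13 CPM, while Kit was 36.8 ± 5.15 and 32.6 ± 4.31, Ano1 17.7 ± 1.92 and 21.2 ± 2.15, and Etv1 12.1 ± 1.496 and 11.8 ± 1.397. Of the 7 fibroblast markers and 5 vascular mural markers, 0 were called with insulin, and in the third comparison Dcn, Notch3 and Pdgfrb were called lower, in 16, 7 and 6 of 21 alternatives. Their log2 fold changes were -0.48, -0.94 and -0.37, and over all alternatives they ran from -0.62 to -0.40, from -1.14 to -0.51 and from -0.46 to -0.27. The value of Notch3 nearest to 0 was that without untreated replicate 4 (edgeR adjusted p = 0.191). With ieIRKO-STAM-INS replicates 2 and 3 both left out, Notch3 was -0.97 and Pdgfrb -0.35 (adjusted p = 0.0779 and 0.124). Control-STAM-nonINS replicate 4, the library with low Mylk and Cnn1, had the highest sums of its group for endothelial (281 CPM) and neuronal (188 CPM) markers. Without it the log2 fold changes with insulin were -0.40 for Tie1, -0.46 for Cdh5, -0.41 for Vwf, -0.76 for Thbs4 and 0.56 for Ret (edgeR adjusted p = 0.0711, 0.102, 0.123, 0.0594 and 0.0724), so these 5 calls were lost, and Vip kept its call with -0.75 (adjusted p = 0.0344). Without untreated replicate 1 the same 5 passed no longer (adjusted p from 0.0532 to 0.0972) at log2 fold changes of -0.46, -0.67, -0.76, -0.66 and 0.63 in the same order. Vwf also passed no longer without Control-STAM-INS replicate 1, 3 or 6 (-0.74, -0.73 and -0.72), and Ret without untreated replicate 3 (0.48) or Control-STAM-INS replicate 3, 5 or 6 (0.55, 0.54 and 0.58).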

How the data were processed

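Whole-ileum RNA libraries were made with a directional kit, and the authors mapped reads to GRCm38 (mm10) with CLC Genomics Workbench. The deposited values are raw counts per gene in each library. Strand use and the handling of reads with several matches are not given in the sources used here. All 16 libraries were grouped by their labels, and replicates are separate biological replicates. Genes were kept by filterByExpr (minimum count 10, total 15), scaled by TMM and fitted over the 3 groups with edgeR 4.0.16 quasi-likelihood tests (limma 3.58.1, R 4.3.3), with Benjamini-Hochberg adjustment over 15267 genes and a threshold of 0.05. The method was tested on simulated data. Standard errors are the log2 fold change divided by the root of F. DESeq2 1.42.0, other scalings and filters, a replicate block, a B cell covariate and leaving out libraries were alternatives. Members and lists were chosen with earlier results of these data known. Full values are given for Myh11, Acta2, Actg2, Tagln, Cnn1, Des and members with an unadjusted p under 0.01, others by ranges. Exon lengths are from GENCODE vM21. Figures used matplotlib 3.10.9.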

Additional observations from a re-analysis of the deposited data

Results flagged for a closer look

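Dixon's test for a library apart from the rest of its group was run on 36 measures, the 35 genes and their sum, in 3 groups. It marked 7 of 108 groups of values, and chance gives about 5.4. Dixon's ratio, the gap to the nearest library over the range of the group, was 0.951 for Mylk and 0.861 for Cnn1 in Control-STAM-nonINS replicate 4, where both were low. Mylk was 535 CPM there against 710 to 719 in the other untreated libraries, and Cnn1 was 124 against 174 to 182. Actn1 was high in Control-STAM-nonINS replicate 1, with 158 CPM against 122 to 127 and a ratio of 0.869. In ieIRKO-STAM-INS replicate 5, Jph2 (ratio 0.854), Pgm5 (0.706), Synm (0.67) and Tpm2 (0.667) were high, with Jph2 at 63.4 CPM against 44.4 to 47.1 in the other 5 libraries. This is also the library in which 28 of the 35 members were highest in their group. No difference of effects between comparisons was tested.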

How the results depend on the processing

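The count of members called with insulin was 0, and it became 3 by DESeq2 (Synpo2, Ldb3 and Pdlim3), 1 with upper-quartile normalization, 1 with plain library totals and 1 with only the 2 groups compared (Ldb3 each time), where 12.8%, 10%, 8.87% and 11.8% of all genes were called. Leaving out each library in turn gave 0 to 1, with Ldb3 without Control-STAM-nonINS replicate 2, Pdlim3 without Control-STAM-INS replicate 2 and Synpo2 without Control-STAM-INS replicate 4, where 12.1%, 8.39% and 7.67% of all genes were called. In the fit with the replicate number as a block, 1 member was called with insulin (Csrp1, lower) and 2 in the comparison of ieIRKO-STAM-INS with the untreated controls (Tagln and Pgm5, lower), where that fit called 9.15% and 10.6% of all genes. Same-numbered libraries correlated between -0.0943 and 0.179 in their deviations, with a median of 0.0245 and 4 of 14 pairs over 0.1. Differently numbered libraries correlated between -0.305 and 0.23, with a median of 0.00278 and 10 of 70 pairs over 0.1. These overlapping ranges do not decide whether the numbers pair the samples. Between the genotypes all 23 alternatives gave 0. The cause of these changes was not tested. The summed level lay near 0, and its sign changed with insulin in the replicate block (-0.0365, and -0.0156 to 0.10 over left-out libraries), between the genotypes with plain library totals (0.0117, with -0.12 to -0.0088 over left-out libraries), and in the third comparison with upper-quartile normalization (0.0102), plain library totals (0.0417), the mean of member log2 levels (0.0176) and ieIRKO-STAM-INS replicates 2 and 3 both left out (0.0081), with -0.077 to 0.0056 over left-out libraries.

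Log2 fold changes near 0 also changed sign. Myh11 with insulin was 0.0027 by DESeq2, 0.0178 with upper-quartile normalization, 0.002 with DESeq2 size factors, 0.0005 with at least 10 counts in every library, 0.0035 with only the 2 groups, 0.0026 without ieIRKO-STAM-INS replicates 2 and 3, and -0.0706 to 0.0497 over left-out libraries. Between the genotypes, plain library totals and scaling by the summed member counts gave 0.0117 and 0.0034 for Acta2, 0.0604 and 0.0537 for Tagln (-0.10 to 0.056 over left-out libraries) and 0.0278 and 0.0238 for Synpo2 (0.0096 with the B cell covariate, -0.11 to 0.0226 over left-out libraries). Over left-out libraries Actg2 ran from -0.0123 to 0.17, Cnn1 from -0.0239 to 0.17 and Des from -0.0391 to 0.14 in that comparison. Des ran from -0.10 to 0.0411 with insulin and from -0.0615 to 0.0875 in the third comparison, and Ldb3 from -0.0661 to 0.16 in the third. With the block, Acta2 was -0.0135 and Des -0.0984 in the third comparison, and with insulin Acta2 was 0.0435, Cnn1 0.12 and Actg2 -0.42. The limits of these data are 4 untreated mice, no ieIRKO group without insulin and whole tissue, and counts of 52 to 81 in the lowest libraries of Myocd, Casq2, Kcnmb1 and Kcnma1.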

Other observations

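The summed level of 11 striated muscle markers was 121 CPM in Control-STAM-INS replicate 6 and 25.6 to 45.9 CPM in the other 15 libraries. Acta1, skeletal alpha-actin, held 1808 counts in its highest library and 21 in its lowest, while Myh4 held 0 in all libraries. Tnnt2, cardiac troponin T, fell with insulin from 18.8 ± 2.12 (SD, n = 4) to 10.5 ± 2.63 CPM (SD, n = 6), with a log2 fold change of -0.84 (edgeR adjusted p = 0.00455), and it was 8.87 ± 1.72 CPM (SD, n = 6) in ieIRKO-STAM-INS. It was the called gene of the 6 striated markers tested, whose median log2 fold change with insulin was 0.35. Ckm, muscle creatine kinase, measured 11.1 ± 1.92 and 15.5 ± 2.58 CPM in untreated and treated controls (edgeR adjusted p = 0.0502), and Acta1 measured 1.65 to 9.53 CPM in the untreated controls, 5.39 to 18.96 in 5 treated controls and 88.3 in the other, which is Control-STAM-INS replicate 6 (adjusted p = 0.0975 over all libraries).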
